A study of Mus musculus with 12 samples.

Results

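Interferon-gamma, its GTPase targets and the CXCR3 chemokines were followed in mouse colorectal tumours that had grown in healthy or fatty liver. The set held 10 named genes: the cytokine Ifng, the guanylate-binding proteins Gbp2, Gbp3 and Gbp5, the immunity-related GTPases Irgm1, Igtp and Iigp1, the chemokines Cxcl9 and Cxcl10, and their receptor Cxcr3. A gene was taken where an array row named it alone, and 9 of the 10 had such a row, out of 22180 genes in all. Each of the 9 had 1 row. No row named Gbp2 alone, so Gbp2 has no value here. All 9 genes passed the filter on low values, which left 13286 genes for testing, but Ifng passed only with the help of its fatty liver arrays. The set was chosen by name and not by measured values.

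RNA was measured on 12 arrays, 3 for each of 4 groups, and the design text gives 3 mice per group. Tumours had been injected into healthy or into fatty liver, and mice received vehicle or the antiangiogenic agent that the labels call Anti-VEGF. The 4 groups were healthy liver with vehicle, healthy liver with anti-VEGF, fatty liver with vehicle and fatty liver with anti-VEGF. The sources used here do not give the tumour line, the mouse strain, sex and age, how the liver was made fatty, or the dose and duration of treatment. Of 10 markers of colorectal epithelium, Krt8 (9.12 to 10.82 on the log2 scale), Krt18 (6.47 to 8.36), Cdh1 (5.63 to 8.67) and Lgals4 (5.03 to 5.53) were above 4.93 on every array. Epcam, Krt19, Krt20, Cdx1 and Vil1 lay below that limit, the median of the whole table, on every array. Of 8 hepatocyte markers, Apoa1 (4.97 to 5.57), Apoa2 (5.40 to 5.75) and Ttr (5.36 to 5.71) were just above the limit on every array, and the other 5, Alb among them, were below it on every array.

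Interferon-gamma is secreted mainly by activated T cells and NK cells. It binds the receptor built from Ifngr1 and Ifngr2, which signals through the kinases Jak1 and Jak2. Promoters of its target genes often hold GAS or ISRE elements, and the induced factor Irf1 binds the latter. Guanylate-binding proteins and immunity-related GTPases assemble on membranes around intracellular microbes and damage them. Cxcl9 and Cxcl10 draw T and NK cells that carry Cxcr3. Type I interferons act through a related route and induce an overlapping set of genes, Cxcl10 among them.

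The promoters were searched for fixed letter patterns of the interferon and NF-kB types. RefSeq (GRCm38.p6) listed a start site for 9 of the 10 genes, all but Iigp1, and the 250 bases before it were searched on both strands. For Gbp3, which has 2 listed starts, the more upstream one was used. The ISRE-type letters, GAAA and GAAA with 2 bases of any kind between them, were found in 6 of the 9 windows (Gbp2, Gbp3, Gbp5, Irgm1, Igtp and Cxcl10), against 2.98% of all 32851 windows. The GAS-type letters TTCNNNGAA were found in 3 (Ifng, Gbp5 and Igtp), against 7.02%, and the NF-kB-type letters, GGGA and TTCC with 2 bases between them, in 2 (Gbp5 and Cxcl10), against 1.21%. The windows of 5 measured genes with an ISRE-type match are shown, with that of Cxcl9, which held none of the 3 motifs, for comparison. Capitals mark the matches, sequences run 5′ to 3′ on the gene's strand, and the Gbp3 stretch is printed for 222 of the 250 bases searched, since it ends where the RefSeq gene record begins, 28 bases before the start from which its matches are counted.
Gbp3, chr3:142559794-142560015, plus strand: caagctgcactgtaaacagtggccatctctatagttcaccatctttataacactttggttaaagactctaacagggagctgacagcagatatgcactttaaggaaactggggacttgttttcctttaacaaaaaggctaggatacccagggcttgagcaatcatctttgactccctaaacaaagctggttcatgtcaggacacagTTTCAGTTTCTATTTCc
Gbp5, chr3:142496684-142496933, plus strand: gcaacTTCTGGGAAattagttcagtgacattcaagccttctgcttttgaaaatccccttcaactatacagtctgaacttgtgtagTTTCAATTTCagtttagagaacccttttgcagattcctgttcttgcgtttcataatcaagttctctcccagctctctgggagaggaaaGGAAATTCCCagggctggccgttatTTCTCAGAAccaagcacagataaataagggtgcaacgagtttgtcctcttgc
Irgm1, chr11:48871421-48871670, minus strand: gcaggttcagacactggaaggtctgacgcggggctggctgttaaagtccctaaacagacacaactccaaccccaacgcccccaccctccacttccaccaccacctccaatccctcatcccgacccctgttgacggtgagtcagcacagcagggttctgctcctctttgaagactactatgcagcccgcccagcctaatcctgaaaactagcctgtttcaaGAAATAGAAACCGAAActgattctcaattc
Igtp, chr11:58199306-58199555, plus strand: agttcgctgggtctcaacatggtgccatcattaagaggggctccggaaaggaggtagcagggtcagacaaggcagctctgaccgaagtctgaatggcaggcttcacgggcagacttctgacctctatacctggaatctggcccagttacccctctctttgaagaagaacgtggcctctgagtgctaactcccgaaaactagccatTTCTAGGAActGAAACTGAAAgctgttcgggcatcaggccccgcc
Cxcl10, chr5:92348890-92349139, minus strand: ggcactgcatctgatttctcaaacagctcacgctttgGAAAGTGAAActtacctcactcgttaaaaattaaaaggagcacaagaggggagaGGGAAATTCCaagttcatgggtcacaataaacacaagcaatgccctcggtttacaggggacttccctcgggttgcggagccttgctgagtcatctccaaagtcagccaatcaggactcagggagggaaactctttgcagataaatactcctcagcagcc
Cxcl9, chr5:92328080-92328329, minus strand: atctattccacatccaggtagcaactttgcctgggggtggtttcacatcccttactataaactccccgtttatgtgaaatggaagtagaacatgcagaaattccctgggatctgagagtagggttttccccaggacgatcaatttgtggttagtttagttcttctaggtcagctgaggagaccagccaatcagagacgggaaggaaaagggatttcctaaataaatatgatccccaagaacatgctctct
In the GTPase genes Gbp3, Irgm1 and Igtp the ISRE-type letters began at -45 (Gbp3), -30 (Irgm1) and -34 (Igtp), counted in bases from the start. The matches of Gbp3 and of Irgm1 were pairs that overlap by 4 bases. The ISRE-type match began at -165 in Gbp5 and at -213 in Cxcl10. A match describes letters only, and no binding was measured. A window without a match, such as that of Cxcl9, can still hold an interferon-type element with other letters.

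Several arrays stood apart or were nearly alike, which bears on every result. Within groups, vehicle arrays 1 and 3 of each liver and all 3 healthy liver anti-VEGF arrays differed by an SD of only 0.148 to 0.163 over the tested genes, against 0.391 to 0.636 for the other pairs. If those arrays did not come from separate mice, the SDs, standard errors and calls rest on fewer samples than stated. Xist was high (8.10 to 10.58) on vehicle arrays 1 and 3 of both livers and at most 4.32 elsewhere. Vehicle array 2 of healthy liver had a mean of 8.56 over 8 endothelial markers, against 5.17 and 5.22 on the other arrays of its group. Vehicle array 2 of fatty liver also stood apart, with an endothelial mean of 7.34 against 5.94 and 5.89 and a fibroblast mean of 8.33 against 6.75 and 6.79. Anti-VEGF array 1 of fatty liver had an endothelial mean of 7.01, against 5.86 and 5.74 in its group, and a fibroblast mean of 8.78, against 7.08 and 7.62. Anti-VEGF array 3 of fatty liver had a mean of 5.66 over 17 T and NK cell markers, against 7.64 to 8.48 on the other fatty liver arrays. In tissue RNA, fewer cells of a type and less RNA per cell cannot be told apart.

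Ifng, the ligand, was near the limit of 4.93 in healthy liver and above it in fatty liver. In healthy liver it measured 4.78, 5.02 and 4.97 with vehicle and 4.80, 4.72 and 4.48 with anti-VEGF. The fatty liver values were 6.15, 8.0 and 6.56 with vehicle and 6.83, 6.91 and 5.24 with anti-VEGF. Every fatty liver array thus lay above every healthy liver array, and the widest gap within a group was between fatty liver arrays. Fatty liver was higher by 1.98 under vehicle (log2, SE 0.49, limma adjusted p = 0.00838) and by 1.66 under anti-VEGF (SE 0.49, adjusted p = 0.0204). Without vehicle arrays 1 and 3 of both livers the difference under vehicle was 2.98 and did not pass (adjusted p = 0.0614). The healthy liver means, 4.92 ± 0.12 and 4.67 ± 0.16 (SD, n = 3), were below the limit, which is the table median. Whether values that low make both differences understate the change was not tested. Under anti-VEGF the call ended when array 2 or 3 of healthy liver or array 1 or 2 of fatty liver was left out, with adjusted p from 0.0516 to 0.0794.

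Cxcr3, the receptor for both chemokines, had the narrowest range of the 9 genes. It measured 5.77, 5.35 and 5.91 in healthy liver with vehicle and 5.48, 5.68 and 5.34 with anti-VEGF. In fatty liver it measured 6.33, 6.23 and 6.26 with vehicle and 6.08, 6.30 and 5.79 with anti-VEGF. The 3 fatty liver vehicle arrays were the closest to each other, and fatty liver anti-VEGF array 3 fell to the level of the healthy liver vehicle arrays. Under vehicle the gene rose in fatty liver by 0.60 (SE 0.16, adjusted p = 0.0123). Under anti-VEGF the rise was 0.56 (SE 0.16, adjusted p = 0.0189). The second call ended when array 1 or 3 of healthy liver or array 1 or 2 of fatty liver in that treatment was left out (adjusted p from 0.0503 to 0.0746).

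Cxcl9, a chemokine induced mostly by interferon-gamma, depended most on single arrays. It measured 8.0, 11.04 and 7.87 in healthy liver with vehicle, and array 2 was the array high in endothelial markers. With anti-VEGF in healthy liver it measured 8.84, 8.94 and 8.84. In fatty liver it measured 10.23, 11.19 and 10.21 with vehicle and 10.43, 11.38 and 11.50 with anti-VEGF. All fatty liver arrays lay above 10, and of the healthy liver arrays only vehicle array 2 did. Under vehicle the livers overlapped and the difference of 1.57 (SE 0.71) did not pass (adjusted p = 0.0869). It passed with the replicate number as a block (adjusted p = 0.0469) and with array weights (2.21, adjusted p = 2.08e-05). The weighted difference was close to that between vehicle arrays 1 and 3 of the livers (2.28), which were nearly alike within each liver. Leaving out array 2 of the healthy liver vehicle group gave 2.61 (adjusted p = 0.000332). Under anti-VEGF Cxcl9 rose in fatty liver by 2.23 (SE 0.71, adjusted p = 0.0265). This call ended when any 1 healthy liver array, or array 2 or 3 of fatty liver, was left out of the anti-VEGF groups (adjusted p from 0.0588 to 0.0790).

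Cxcl10, the other CXCR3 ligand, separated the livers more evenly. It measured 9.60, 10.50 and 9.73 in healthy liver with vehicle and 8.94, 8.97 and 8.96 with anti-VEGF. Fatty liver gave 11.15, 11.37 and 11.07 with vehicle and 11.55, 11.10 and 10.32 with anti-VEGF. Within each treatment the livers did not overlap, and fatty liver anti-VEGF array 3 was the lowest fatty liver array. Cxcl10 rose in fatty liver by 1.25 under vehicle (SE 0.30, adjusted p = 0.00653) and by 2.04, or 4.10-fold, under anti-VEGF (SE 0.30, adjusted p = 0.000514).

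**Figure D1:**
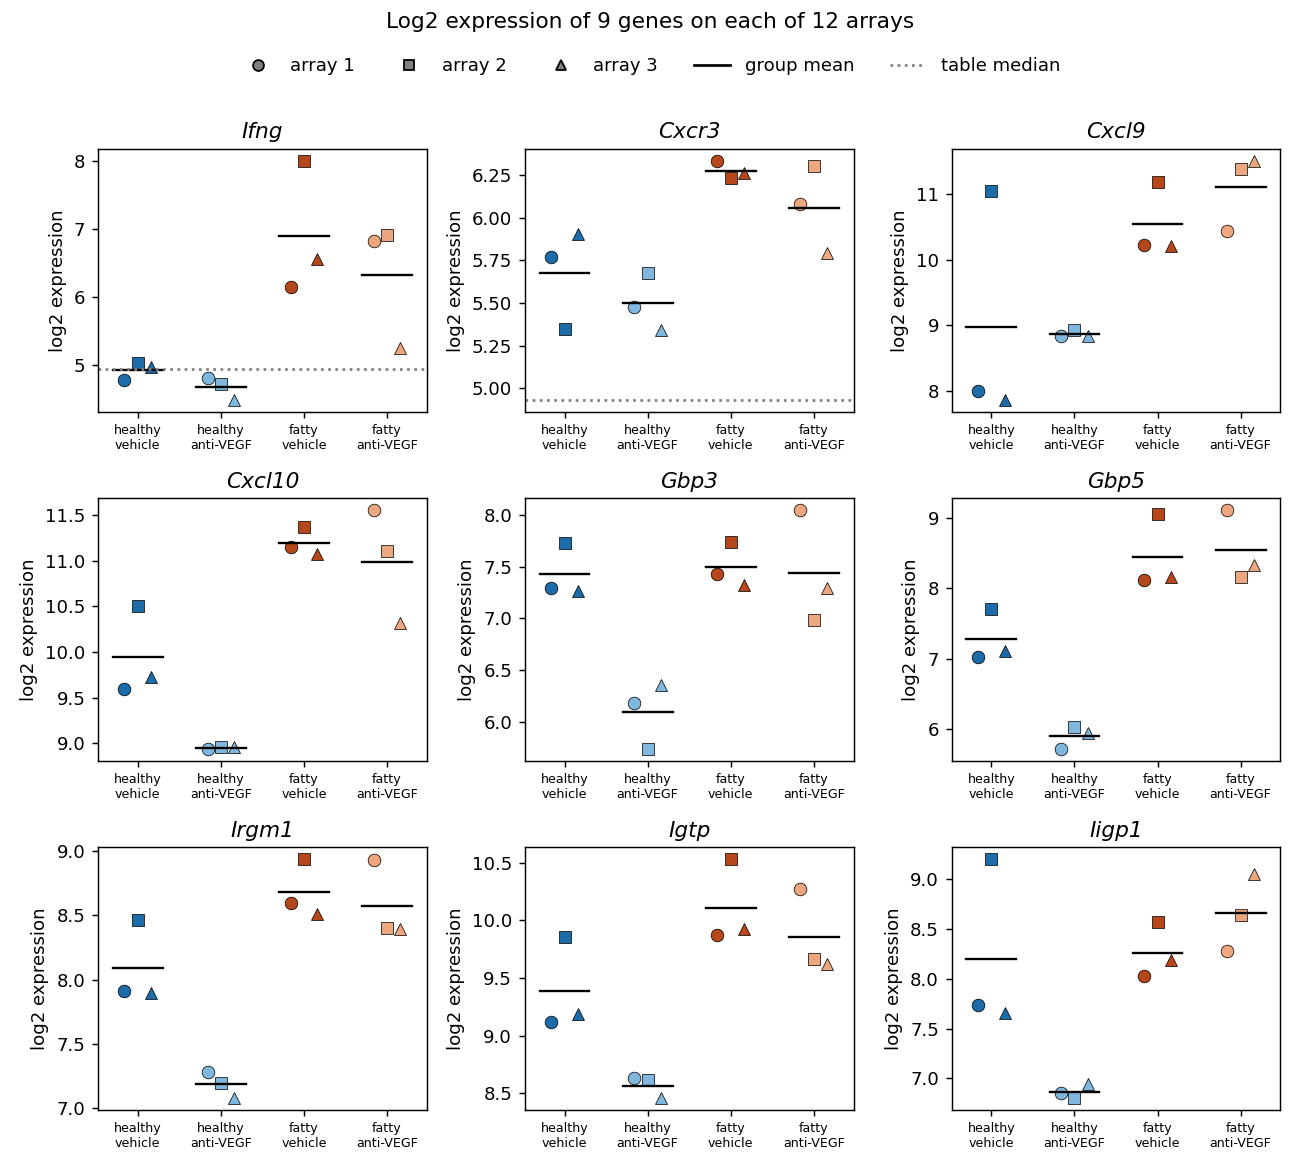
Log2 expression (y axis, a separate scale per gene) of the 9 measured genes on each array, by group on the x axis; circles, squares and triangles are arrays 1, 2 and 3, black lines are group means, and the dotted line, drawn where it falls in range, is the table median of 4.93. Healthy liver anti-VEGF arrays were lowest for the GTPases and Cxcl10, and vehicle array 2 of healthy liver stood out for Cxcl9 (11.04) and Iigp1 (9.20).

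Among the guanylate-binding proteins, which attack the vacuoles of intracellular microbes, Gbp5 separated the livers and Gbp3 did so only under anti-VEGF. Gbp5, also a promoter of inflammasome assembly, measured 7.02, 7.71 and 7.11 in healthy liver with vehicle and 5.71, 6.02 and 5.93 with anti-VEGF. In fatty liver it measured 8.12, 9.06 and 8.16 with vehicle and 9.11, 8.17 and 8.34 with anti-VEGF. No healthy liver array reached a fatty liver array, and within healthy liver the treatments did not overlap. Gbp5 rose in fatty liver by 1.16 under vehicle (SE 0.31, adjusted p = 0.0105) and by 2.65, or 6.29-fold, under anti-VEGF (SE 0.31, adjusted p = 0.000131). The second difference was the largest of any of the 9 genes in the 5 comparisons made.

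Gbp3 measured 7.29, 7.73 and 7.27 in healthy liver with vehicle and 6.18, 5.74 and 6.36 with anti-VEGF. Its fatty liver values were 7.43, 7.74 and 7.32 with vehicle and 8.05, 6.99 and 7.30 with anti-VEGF. Both vehicle groups and the fatty liver anti-VEGF group overlapped, and the healthy liver anti-VEGF group lay below all of them. The difference between livers was 0.07 under vehicle (SE 0.26, adjusted p = 0.852), while under anti-VEGF Gbp3 was higher in fatty liver by 1.36 (SE 0.26, adjusted p = 0.00270).

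The immunity-related GTPases Irgm1 and Igtp, which regulate the other members of their family on host membranes, followed each other closely. Irgm1 measured 7.91, 8.46 and 7.90 in healthy liver with vehicle and 7.28, 7.20 and 7.08 with anti-VEGF. In fatty liver it measured 8.60, 8.94 and 8.51 with vehicle and 8.93, 8.40 and 8.40 with anti-VEGF. Igtp measured 9.12, 9.86 and 9.18 in healthy liver with vehicle and 8.63, 8.61 and 8.46 with anti-VEGF. Its fatty liver values were 9.87, 10.53 and 9.93 with vehicle and 10.27, 9.66 and 9.62 with anti-VEGF. In both genes vehicle array 2 was the highest of its group in each liver, and the healthy liver anti-VEGF arrays were the lowest of all 12.

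Irgm1 rose in fatty liver by 0.59 under vehicle (SE 0.19, adjusted p = 0.0258) and by 1.39 under anti-VEGF (SE 0.19, adjusted p = 0.000370). For Igtp the rises were 0.72 (SE 0.24, adjusted p = 0.0316) and 1.29 (SE 0.24, adjusted p = 0.00240). Igtp also missed the threshold under vehicle in a fit of only the arrays compared (adjusted p = 0.0664). Under vehicle both calls ended when array 1 or 3 of healthy liver or array 2 of fatty liver was left out, with adjusted p from 0.0933 to 0.125.

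Iigp1, the effector GTPase of this family that loads onto the vacuole, was called between livers in the main fit only under anti-VEGF. It measured 7.74, 9.20 and 7.66 in healthy liver with vehicle and 6.85, 6.81 and 6.95 with anti-VEGF. In fatty liver it measured 8.03, 8.58 and 8.19 with vehicle and 8.28, 8.64 and 9.06 with anti-VEGF. Healthy liver vehicle array 2 was the highest of all 12 arrays, above every fatty liver array. The difference between livers was 0.06 under vehicle (SE 0.36, adjusted p = 0.904), and without that array it was 0.56 (adjusted p = 0.0474). With array weights it was 0.41 and passed (adjusted p = 0.0223), and with nearly alike arrays averaged it was -0.11. Under anti-VEGF Iigp1 rose in fatty liver by 1.79 (SE 0.36, adjusted p = 0.00330).

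Counted together, 6 of the 9 genes rose in fatty liver under vehicle, where 19.2% of all tested genes were called higher, 30.4% lower and 49.6% either way, and no member was called lower. Under anti-VEGF 9 of 9 rose, where 18.2% of all tested genes were called higher, 27.6% lower and 45.8% either way. The livers did not overlap for 6 members under vehicle, all higher in fatty liver (23.6% of all tested genes higher, 37.2% lower), and for 9 under anti-VEGF (21.9% higher, 36.6% lower). Leaving out Ifng, which passed the filter through fatty liver, the counts were 5 of 8 and 8 of 8. The median log2 difference of the 9 genes, Ifng included, was 0.72 under vehicle and 1.66 under anti-VEGF. For all tested genes it was -0.12 and -0.13. The value of 1.66 was that of Ifng itself. With nearly alike arrays averaged to 1, no member passed under vehicle and 1, Gbp5, under anti-VEGF, where 4.47% and 3.67% of all tested genes were called higher. No direction changed except that of Iigp1 under vehicle (-0.11). With the replicate number as a block the counts were 7 and 9. With array weights they were 8 and 9, where 24.7% and 27.6% of all tested genes were called higher.

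The vehicle arrays allow the livers to be compared within arrays alike in Xist. Between arrays 1 and 3 of the livers, fatty liver was higher for all 9 genes, by 0.10 (Gbp3) to 2.28 (Cxcl9). Between the arrays numbered 2, it was higher by 2.98 for Ifng and by 1.35 for Gbp5, but by only 0.15 for Cxcl9 and 0.01 for Gbp3, and lower for Iigp1 (-0.63). In a fit with only array 2 left in each vehicle group, the members' calls between livers under vehicle did not hold. Any call in such a fit assumes that the lone arrays vary like the other groups.

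**Figure D2:**
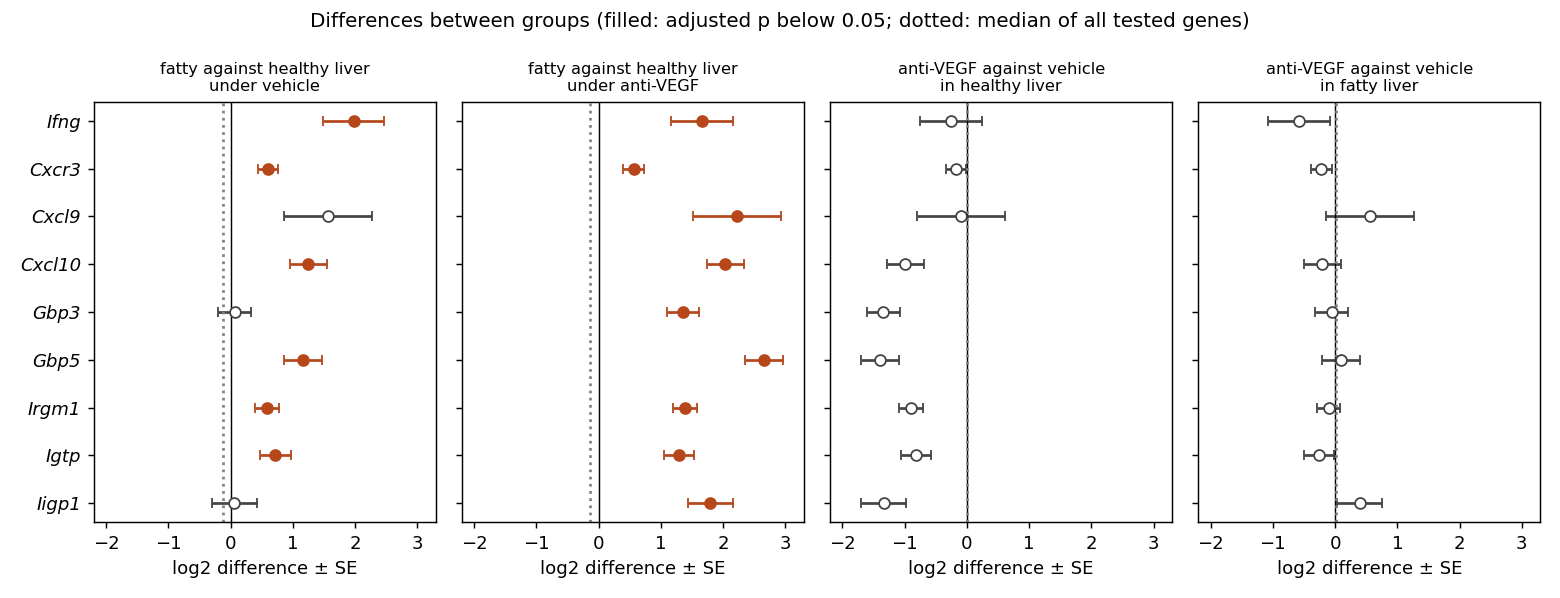
Log2 difference (x axis) of each of the 9 genes (y axis) in 4 comparisons; points are limma estimates, bars are 1 SE, filled points have an adjusted p below 0.05, and the dotted line is the median of all tested genes. The differences between livers were filled for 6 genes under vehicle and 9 under anti-VEGF, and no treatment difference was filled.

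With anti-VEGF in healthy liver, 6 of the 9 genes lay below the vehicle arrays with no overlap: Gbp3, Gbp5, Irgm1, Igtp, Iigp1 and Cxcl10, that is, all 5 measured GTPases and 1 chemokine. Of all tested genes, 11.7% were lower without overlap and 13.1% higher. No member passed in limma, and neither did any of the 13286 genes (0%); at an unadjusted p below 0.05, the same 6 members were lower, against 8.41% of all tested genes in either direction. The log2 differences were -1.39 for Gbp5 (SE 0.31, adjusted p = 0.211), -1.34 for Gbp3 (SE 0.26, adjusted p = 0.153), -1.33 for Iigp1 (SE 0.36, adjusted p = 0.299) and -0.99 for Cxcl10 (SE 0.30, adjusted p = 0.347). Irgm1 was lower by 0.90 and Igtp by 0.82 on that scale, neither past the threshold. Ifng (-0.25, SE 0.49), Cxcr3 (-0.18, SE 0.16) and Cxcl9 (-0.10, SE 0.71) overlapped between treatments.

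These 6 differences had the same sign against either kind of vehicle array. Against vehicle arrays 1 and 3, the mean of the anti-VEGF arrays differed by -1.18 for Gbp5, -1.19 for Gbp3, -0.83 for Iigp1 and -0.71 for Cxcl10. Against vehicle array 2 alone they were -1.82, -1.64, -2.33 and -1.55. Cxcl9 changed sign between them, 0.94 against arrays 1 and 3 and -2.16 against array 2. No anti-VEGF array was high in Xist, so treatment and the trait that Xist marks cannot be told apart in the first set. With array weights 6 members passed as lower, where 8.11% of all tested genes did. Without vehicle arrays 1 and 3 of both livers 5 did (Gbp5, Irgm1, Igtp, Iigp1 and Cxcl9), where 5.26% of all tested genes did. In that fit genes of the macrophage, endothelial and fibroblast lists were also called lower, and their part in the members' calls was not tested. Genes of the lists of other guanylate-binding proteins, other immunity-related GTPases, other interferon-gamma targets and the type I interferon response were called lower there too. Gbp3 alone passed when fatty liver anti-VEGF array 1 was left out (adjusted p = 0.0275).

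In fatty liver no member was called between treatments, where limma called 0.00753% of all tested genes (1 gene), and no member had an unadjusted p below 0.05. All 9 genes overlapped between the groups, while 3.07% of all tested genes were higher and 4.99% lower without overlap. The differences ran from -0.58 for Ifng to 0.56 for Cxcl9, with a median of -0.10. As in healthy liver, vehicle arrays 1 and 3 were high in Xist and no anti-VEGF array was. Treatment and the trait that Xist marks thus cannot be told apart against those arrays. Against vehicle array 2 alone, 2 members changed sign, Gbp5 (-0.52) and Cxcl9 (-0.083), and 7 kept it. With array weights Cxcl9 (1.08, adjusted p = 0.0273) and Iigp1 (0.47, adjusted p = 0.0494) passed as higher, as did 6.92% of all tested genes. The 95% intervals were -0.58 to 0.77 for Gbp5, -0.64 to 0.53 for Gbp3, -0.53 to 0.32 for Irgm1 and -0.86 to 0.45 for Cxcl10. Those of Ifng (-1.67 to 0.52) and Cxcl9 (-1.01 to 2.13) were wider, so sizable changes either way were not detectable with 3 arrays a group.

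The dependence of the treatment difference on the liver was tested as an interaction. It draws on both vehicle groups, and the part in it of the trait that Xist marks was not tested. It was positive for the 5 GTPases, at 1.73 for Iigp1 (SE 0.51), 1.49 for Gbp5 (SE 0.43), 1.29 for Gbp3 (SE 0.37), 0.80 for Irgm1 (SE 0.27) and 0.56 for Igtp (SE 0.35). None passed in limma (adjusted p from 0.852 to 0.979), nor did any of the 13286 genes (0%). At an unadjusted p below 0.05 there were 4 members, all positive, against 5.1% of all tested genes. With array weights 5 members passed (Gbp3, Gbp5, Irgm1, Iigp1 and Cxcl10), all positive, where 6.6% of all tested genes were called positive. Ifng itself (-0.32, SE 0.70) and Cxcr3 (-0.04, SE 0.23) lay near 0. The lower GTPase levels with anti-VEGF in healthy liver are thus not shown to be absent in fatty liver.

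Set beside Ifng array by array, some targets shared its extremes and others did not. Ifng was highest on fatty liver vehicle array 2 (8.0), where Irgm1 (8.94) and Igtp (10.53) were highest too; that array's endothelial and fibroblast means also stood apart. It was lowest among fatty liver arrays on anti-VEGF array 3 (5.24), where Cxcl9 (11.50) was the highest of all 12 and Iigp1 (9.06) the highest of the fatty liver arrays. On the same array Cxcl10 (10.32) and Cxcr3 (5.79) were the lowest of fatty liver, as was the T and NK cell mean (5.66). Ncr1 (3.90) and Gzma (3.36) were below the limit there. Irgm1 (8.40) and Igtp (9.62) were hardly below their values on anti-VEGF array 2 (8.40 and 9.66), where Ifng was 6.91. The macrophage mean on that array was 11.39 over 11 markers, beside 11.43 to 11.71 on the other fatty liver arrays.

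In healthy liver Ifng hardly varied while its targets did. Vehicle array 2 had an Ifng value of 5.02 beside Cxcl9 at 11.04 and Iigp1 at 9.20. Its endothelial (8.56), fibroblast (9.88 over 6 markers) and macrophage (10.50) means were the highest of healthy liver, and its T and NK cell mean was 5.75 against 5.07 to 5.21 on the others. The part of these cells in the values of Cxcl9 and Iigp1 was not tested. From vehicle to anti-VEGF in healthy liver the 5 GTPases were lower without overlap, while Ifng stayed between 4.48 and 5.02, around the limit. That limit is the table median, and no detection call was used. Whether a change in Ifng could be measured at that level was not tested.

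**Figure D3:**
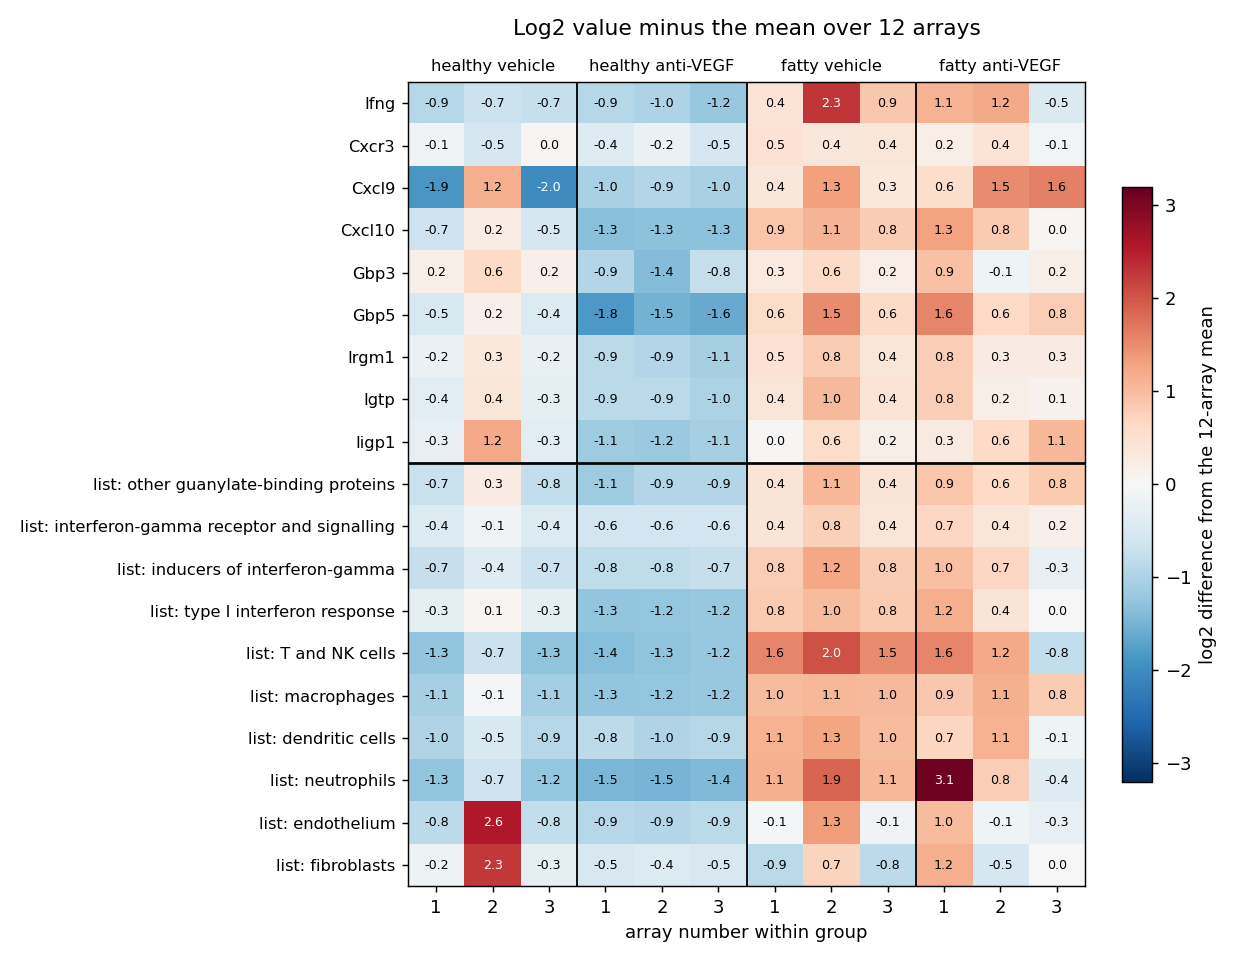
Log2 value minus the mean over the 12 arrays (colour and printed number) for the 9 genes and, under the line, for the mean of each related gene or cell type list; columns are arrays 1 to 3 of each group. Fatty liver anti-VEGF array 3 was below average for Ifng and T and NK cells but above it for Cxcl9 and Iigp1, and healthy liver vehicle array 2 was far above average for endothelium and Cxcl9.

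Markers of immune cells also differed between the livers. Of 16 tested T and NK cell genes, 6 passed the filter only with the help of fatty liver arrays. Of the other 10, all rose in fatty liver under vehicle and 9 under anti-VEGF, among them Cd4 (2.04, SE 0.24, and 1.72, SE 0.24). All 11 tested macrophage genes rose in both, including Itgam, an integrin of myeloid cells (2.31, SE 0.25, and 2.93, SE 0.25). Of 3 dendritic cell genes that passed in healthy liver too, 2 rose in both, Itgax by 2.76 (SE 0.31) and 3.43 (SE 0.31) and Ccr7 by 3.27 (SE 0.71) and 1.93 (SE 0.71). With nearly alike arrays averaged, only 2 T and NK cell genes passed under vehicle and 0 under anti-VEGF, and 4 and 7 macrophage genes did. Without vehicle arrays 1 and 3 of both livers, 2 T and NK cell genes and 4 macrophage genes passed under vehicle. The T and NK cell mean ranged from 5.15 to 5.75 in healthy liver with vehicle, 5.07 to 5.21 with anti-VEGF, 7.96 to 8.48 in fatty liver with vehicle and 5.66 to 7.99 with anti-VEGF. The macrophage mean ranged from 9.49 to 10.50, 9.31 to 9.37, 11.58 to 11.64 and 11.39 to 11.71 in the same order. Whether more cells of these types account for the rises of the 9 genes was not tested.

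Of 6 other guanylate-binding proteins tested, Gbp2b passed the filter only through fatty liver anti-VEGF arrays. Of the other 5, 3 rose in fatty liver under vehicle and 5 under anti-VEGF. Gbp8 rose most, by 2.93 (SE 0.51, adjusted p = 0.0015) and 3.67 (SE 0.51, adjusted p = 0.000384), and Gbp9 rose by 1.46 and 2.50. Gbp4 differed by 1.58 under vehicle without passing (adjusted p = 0.0541) and rose by 3.10 under anti-VEGF. With anti-VEGF in healthy liver the median of the 6 was -0.79, from -1.32 for Gbp4 to 0.20 for Gbp2b. The main fit called 0 of them. Of 3 other immunity-related GTPases, Irgm2 and Gm4951 were higher in fatty than in healthy liver under anti-VEGF, by 1.25 (SE 0.19) and 1.95 (SE 0.21). Between livers under vehicle they did not pass (0.31 and 0.18), the pattern also seen for Gbp3 and Iigp1. Irgq was lower in fatty than in healthy liver under anti-VEGF, by 0.44 (SE 0.11). Family members are similar in sequence, and binding of a row's probes to a relative's transcript was not tested.

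Genes of the receptor and its signalling rose in 8 of 12 cases in fatty liver under vehicle and in 9 of 12 under anti-VEGF, with medians of 0.82 and 0.91. Ifngr1 rose by 1.63 (SE 0.21) and 1.60 (SE 0.21), and Ifngr2 by 1.00 (SE 0.14) under vehicle. Irf8, a factor of myeloid cells, rose by 1.97 (SE 0.19) and 2.52 (SE 0.19), and Ciita, the switch for MHC class II genes, by 2.02 (SE 0.31) under vehicle.

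Of 12 inducers of interferon-gamma tested, 3 passed the filter only with fatty liver arrays. Of the other 9, 7 rose in fatty liver under vehicle and 6 under anti-VEGF. They included the cytokines Il15 (2.37, SE 0.30, and 2.39, SE 0.30) and Il18 (2.16, SE 0.32, and 2.35, SE 0.32) and the transcription factor Stat4 (3.47, SE 0.54, and 3.19, SE 0.54). Like Ifng, their list mean was lowest among fatty liver arrays on anti-VEGF array 3, at 6.17 against 7.09 to 7.67 on the other fatty liver arrays. Other interferon-gamma targets rose in fatty liver in 14 of 17 cases under vehicle and 15 of 17 under anti-VEGF, with medians of 0.92 and 1.33. Examples were Fcgr1, the high-affinity IgG receptor (2.23, SE 0.28, and 2.86, SE 0.28), and Il18bp, which neutralises interleukin 18 (1.05, SE 0.13, and 1.75, SE 0.13).

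The type I interferon response was measured because it shares targets with interferon-gamma. It rose in fatty liver in 13 of 17 cases under vehicle (median 1.08) and in 16 of 17 under anti-VEGF (median 1.71). Ifit2 rose by 1.39 (SE 0.17) and 1.71 (SE 0.17), and Irf7 by 1.74 (SE 0.28) and 2.56 (SE 0.28). With anti-VEGF in healthy liver its median difference was -1.10, against -0.90 for the 9 genes and 0.01 for all tested genes. In the main fit limma called no gene of the list there, and Rtp4 came closest (-1.32, SE 0.19, adjusted p = 0.0754). Of 6 type I and III interferon genes 3 were tested and 0 called in either liver comparison, and Ifnb1 was above the limit on 1 array, fatty liver anti-VEGF array 1 (6.38). That array also had the highest Gbp5 (9.11), Gbp3 (8.05) and Cxcl10 (11.55) and the highest neutrophil mean, 9.52 over 6 markers. The counts of these lists fell with nearly alike arrays averaged. Under vehicle and anti-VEGF, 0 and 0 of the other guanylate-binding proteins then rose, 3 and 1 of the receptor list, 1 and 0 of the inducers, 4 and 6 of the other targets, and 1 and 3 of the type I list. Without vehicle arrays 1 and 3 of both livers, 1, 0, 6 and 1 of the guanylate-binding, inducer, other target and type I lists rose under vehicle.

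**Figure D4:**
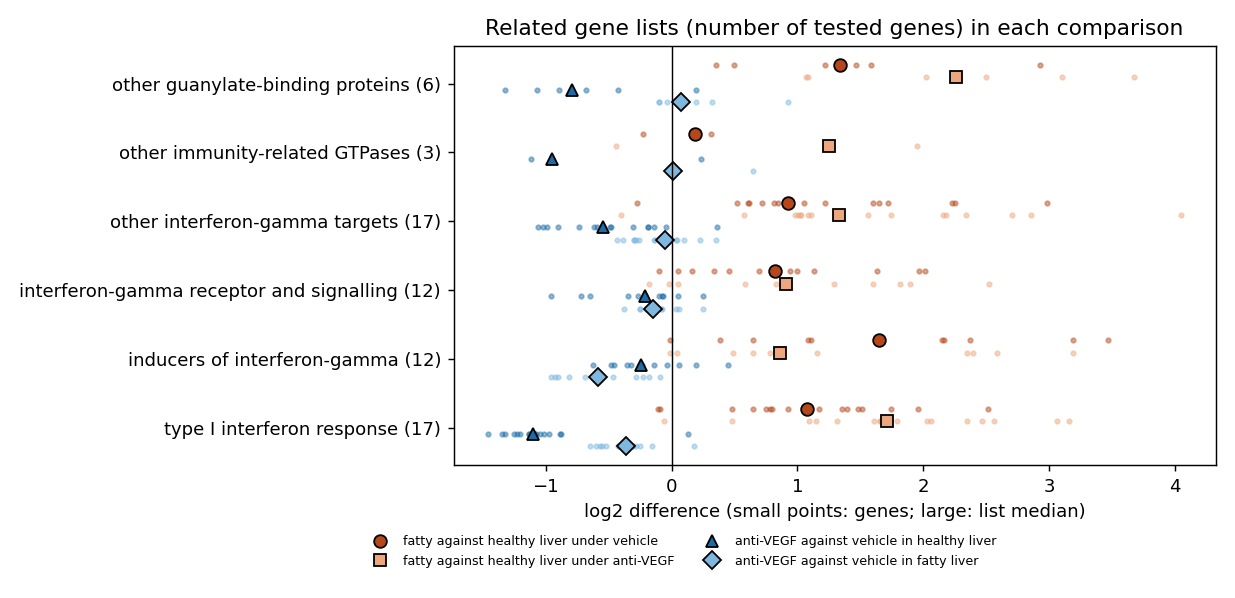
Log2 difference (x axis) of the tested genes of 6 related lists (y axis, number of genes in brackets) in 4 comparisons; small points are genes and large symbols are list medians. Medians between livers were above 0 in all 6 lists, and with anti-VEGF in healthy liver they ran from -0.21 for the receptor list to -1.10 for the type I list.

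By likeness of their values over the 12 arrays, the genes outside the set nearest to Ifng were Osgin2 (Pearson r = 0.98), Zap70, a kinase of the T cell receptor (0.98), Htr7 (0.97), St14 (0.97) and Gpcpd1 (0.97). Within the set, likeness to Ifng ran from 0.51 for Iigp1 and 0.58 for Gbp3 to 0.88 for Cxcl10. The genes nearest to Cxcl9 were P4hb (0.97), Zcwpw1 (0.96), Pdgfb (0.96), Slc43a3 (0.95) and Cd81 (0.95), and its likeness to Ifng was 0.65. These values describe the profiles only, since the arrays form 2 sets by liver and several are nearly alike.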

How the data were processed

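The values analysed are log2 expression values that the authors deposited, 1 column per array. Per the labels' protocols, total RNA was checked for integrity, amplified and labelled with biotin, and Affymetrix Expression Console is the tool in the submitters' processing notes. The sources used here do not state normalization, summarisation or build. That the scale is log2 was inferred from the values, and their centring is unknown.

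Of 41345 rows, 23521 named 1 gene in the platform annotation, 1814 named several and 16010 none. Where a gene had several rows, that of highest mean was used. A gene was tested when above the table median of 4.93 on at least 3 arrays. A single fit by limma 3.58.1 in R 4.3.3 held the 12 arrays, with a mean per group, 8 residual and 2.40 prior degrees of freedom, and 5 contrasts. A call is a Benjamini-Hochberg adjusted p, over all tested genes, below 0.05. Adjusted p-values are limma's and two-sided, and errors are moderated standard errors (SE). The fit was tested on simulated data. The number of arrays limits the precision.

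Every gene of the set was named, with up to 4 genes of each other list by smallest p and the 5 genes most like Ifng and Cxcl9; Ncr1, Gzma and Ifnb1, named for single arrays, were chosen after their values were seen. The genes and lists were chosen with earlier results of these data known. Same-numbered arrays deviated together in every pair only between the vehicle groups (correlations 0.536, 0.701 and 0.549), a pairing taken from the data, not the labels; across numbers, arrays 1 and 3 correlated as well (0.553 and 0.574).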

Additional observations from a re-analysis of the deposited data

How the results depend on the processing

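Quantile normalization, no filter on low values, the mean of a gene's rows, the replicate block and a fit of only the arrays compared kept the count of members called within 1.5 times in every comparison they were run for (the last was not run for the interaction). With the replicate block the counts were 7 and 9 for the livers under vehicle and anti-VEGF and 0 in the other 3 comparisons; it changed 1 call, that of Cxcl9 under vehicle. The largest departures came with nearly alike arrays averaged, where 0 members were called between livers under vehicle and 1 under anti-VEGF, with fewer samples in the fit. Without vehicle arrays 1 and 3 of both livers each vehicle group kept 1 array, so calls there assume that it varies like the other groups. The members' calls between livers under vehicle did not hold in that fit either. With array weights 6 were called for treatment in healthy liver and 5 for the interaction. For treatment in fatty liver 2 were called (Cxcl9 and Iigp1, higher). Of all tested genes 12.5%, 11.1% and 13.9% were called either way, in the same order. The cause was not tested. Between livers under vehicle the weighted differences of Cxcl9 (2.21) and Iigp1 (0.41) lay near those of vehicle arrays 1 and 3 (2.28 and 0.40). How far calls with array weights rest on the nearly alike arrays was not tested. Leaving out each array in turn gave 4 to 8 and 6 to 9 members between livers under vehicle and anti-VEGF, 0 to 1 for treatment in healthy liver, and 0 in the other 2 comparisons.

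Directions reversed only for differences that were not called. Between livers under vehicle, Iigp1 was -0.11 with nearly alike arrays averaged and -0.63 without vehicle arrays 1 and 3, and over single arrays left out it ranged from -0.21 to 0.56 and Gbp3 from -0.052 to 0.22. For treatment in healthy liver, Cxcl9 was 0.83 with array weights and ranged from -0.64 to 0.94, and Cxcr3 was 0.15 without vehicle arrays 1 and 3. For treatment in fatty liver, Ifng was 0.33 with array weights, Gbp5 was -0.057 with nearly alike arrays averaged and -0.52 without vehicle arrays 1 and 3, and Cxcl9 was -0.083 without them. Ranges there were -0.36 to 0.18 for Gbp3, -0.19 to 0.40 for Gbp5, -0.28 to 0.023 for Irgm1 and -0.49 to 0.13 for Cxcl10. For the interaction, array weights gave 0.51 for Ifng and 0.29 for Cxcr3, and ranges were -0.70 to 0.23 for Ifng, -0.38 to 1.21 for Cxcl9 and -0.16 to 0.12 for Cxcr3.

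No detection call was used. Whether values near the table median, such as those of Ifng in healthy liver, can be ordered was not tested.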
